A study of Caenorhabditis elegans with 2 samples.

Results

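Genes named nhr encode nuclear hormone receptors, and 234 of the 14777 Caenorhabditis elegans genes measured on both arrays belonged to this family. Members were the genes whose symbol in GEO's platform annotation starts with nhr- and a number, taken from probes assigned to exactly 1 gene and averaged over a gene's probes. The annotation named 235 such genes on 256 probes. Of these, nhr-59 had a value on the preparation 1 array alone (-0.04) and was left out, as were 3 probes that named an nhr gene together with another gene. The family name was checked against RefSeq, where the symbol reached through the Entrez ID was also an nhr name for 232 of the 234 genes. The other 2 IDs found no match. Whether the number in the name was the same was not compared.

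Nuclear hormone receptors are transcription factors that bind DNA through a zinc-finger domain and, in many cases, a small lipophilic ligand through a separate domain. The nematode family is far larger than that of insects or mammals, and most of its members arose by expansion of a group related to the vertebrate receptor HNF4. A small set has counterparts across animals, among them receptors of the molting cycle, while studied members of the expanded group act in fat metabolism, detoxification and stress responses.

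Each array was a spotted 2-colour microarray. Per the labels, channel 2 held mRNA of glp-4 larvae of stage L2 (the second larval stage), with preparation 1 and preparation 2 on an array each, and channel 1 held a reference of mixed wild-type mRNA. The source names give mRNA, while the molecule field of the labels gives total RNA. glp-4 is a gene whose loss, at a raised temperature, leaves worms with few germ cells. Allele, temperature, dyes and scaling are not stated in the labels, which also do not tie the preparations to separate cultures, so a p-value here reflects the spread of 2 hybridisations and that may be technical. The channels differ in genotype and in stage at once, and in RNA of whole worms fewer cells of a type and less RNA per cell cannot be told apart.

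Values are log2 ratios, read as likely glp-4 L2 over reference because the major sperm protein and yolk protein genes had medians below 0 on both arrays. A ratio of 1 on this scale is 2-fold. Every sign below would turn if that reading were wrong. The preparation 1 and 2 arrays gave 21472 and 21202 probe values, and the medians over all genes were 0.10 and 0.02. The number of arrays limits the precision, and signal over background is unknown.

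The first comparison asked which receptors had other levels in glp-4 L2 than in the reference. The receptor gene nhr-73 was higher in glp-4 L2 and nhr-21 was lower, and the other 232 did not pass the test. Within 1 log2 unit of 0 on both arrays were 142 of the 234 genes (60.7%, against 54.0% of all genes). The mean ratio was within 0.5 of 0 for 47.0% of nhr genes and 46.9% of all genes, so closeness to the reference does not mark the family.

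nhr-73 had log2 ratios of 3.08 in preparation 1 and 3.24 in preparation 2. Both arrays placed it far above the reference, and its mean ranked 52 from the top among the 14777 genes. The mean was 3.16 ± 0.12 (SD, n = 2), or 8.94-fold higher (limma adjusted p = 0.0335). nhr-21 had log2 ratios of -3.05 and -2.94 on the preparation 1 and 2 arrays. Its values were as close together as those of nhr-73, and its mean ranked 172 from the bottom. The mean was -3.00 ± 0.07 (SD, n = 2), or 7.97-fold lower (limma adjusted p = 0.0363). When log2 ratios beyond 5 were set to 5 before the fit, nhr-21 no longer passed (limma adjusted p = 0.0502), and nhr-73 did (limma adjusted p = 0.0453). The mean ratios of both genes are the same in that fit.

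These 2 calls are 0.855% of the family, against 1.86% of all genes called in either direction. By direction, 1 of 234 was called lower (0.427%, against 1.5% of all genes) and 1 was called higher (0.427%, against 0.365%). At an unadjusted p under 0.05 in the same limma fit, 6 nhr genes lay below 0 (2.56%, against 10.9% of all genes) and 23 above (9.83%, against 7.78%). No nhr gene and no other gene had a limma adjusted p under 0.01. The counts moved with the scaling, for the family and for all genes. With each array centred on its median, 2 nhr genes were lower and 2 higher (377 and 90 of all genes). After quantile normalization 2 were lower and 5 higher (521 and 202 of all genes). Without these steps the counts over all genes were 221 and 54.

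A fixed size of difference was also counted, without a test. On both arrays, 17 nhr genes were at least 2-fold above the reference (7.26%, against 4.0% of all genes), and 6 were at least 2-fold below it (2.56%, against 7.35%). The family therefore held 17 genes above and 6 below, where the whole table held 591 above and 1086 below. The 6 below were nhr-21, nhr-57, nhr-19, nhr-290, nhr-48 and nhr-18. Above 0 on both arrays were 116 nhr genes (49.6%, against 5463 of all 14777 genes), below 0 on both were 53 (22.6%, against 30.8% of all genes), and 65 had opposite signs (27.8%, against 32.2%). No test was made of these differences in share.

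**Figure D1:**
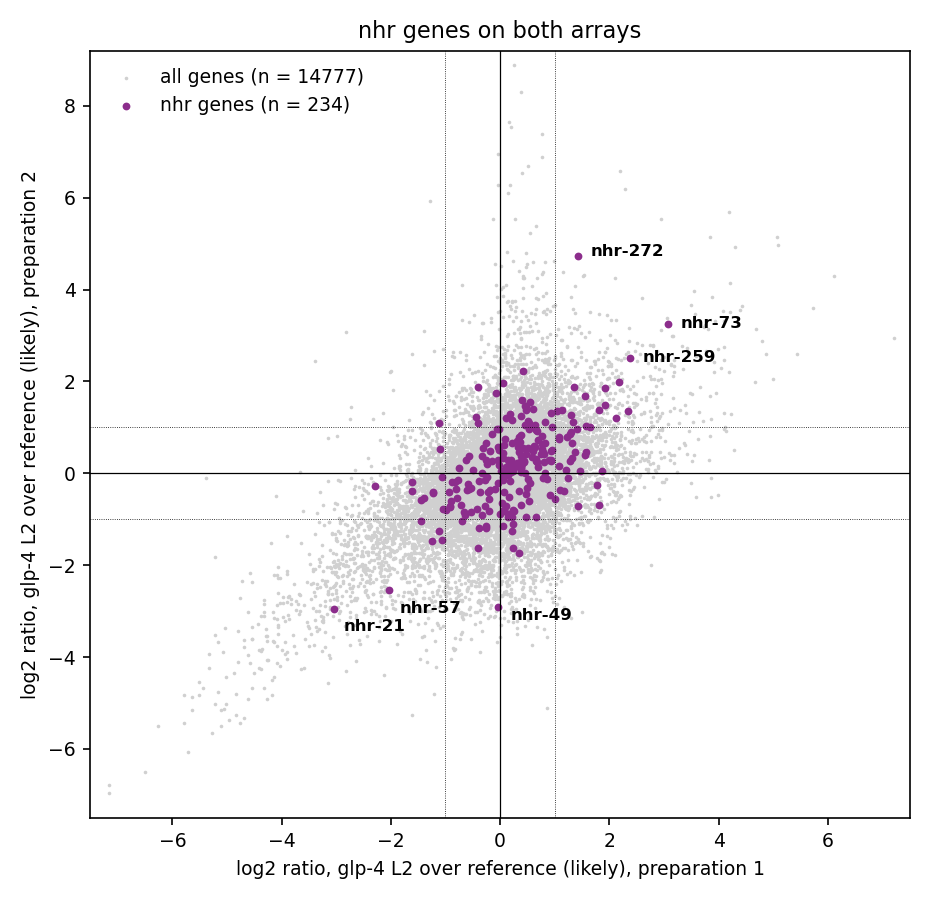
Each point is a gene, with its log2 ratio in preparation 1 on the x axis and in preparation 2 on the y axis; purple points are the 234 nhr genes, grey points all 14777 genes, and dotted lines mark 2-fold. The nhr genes gather around 0, with nhr-73 (3.08 and 3.24) and nhr-21 (-3.05 and -2.94) near the diagonal and nhr-49 (-0.04 and -2.91) and nhr-272 (1.43 and 4.74) away from it.

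The median log2 ratio of the nhr genes was 0.24, against 0.08 for all genes. In preparation 1 it was 0.24 and in preparation 2 it was 0.20, where all genes had 0.10 and 0.02. The spread of the mean ratios over the family was smaller than over all genes, with an SD across genes of 0.79 against 1.00. The lower tails lay further apart than the upper ones. The lowest 5% of nhr genes lay below -0.93 and the lowest 5% of all genes below -1.73, whereas the highest 5% began at 1.33 and 1.38. Between the 2 arrays, Pearson's r over the 234 nhr genes was 0.54, and over all genes it was 0.53. These are correlations across genes, which are not independent replicates, and the arrays share the reference RNA.

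**Figure D2:**
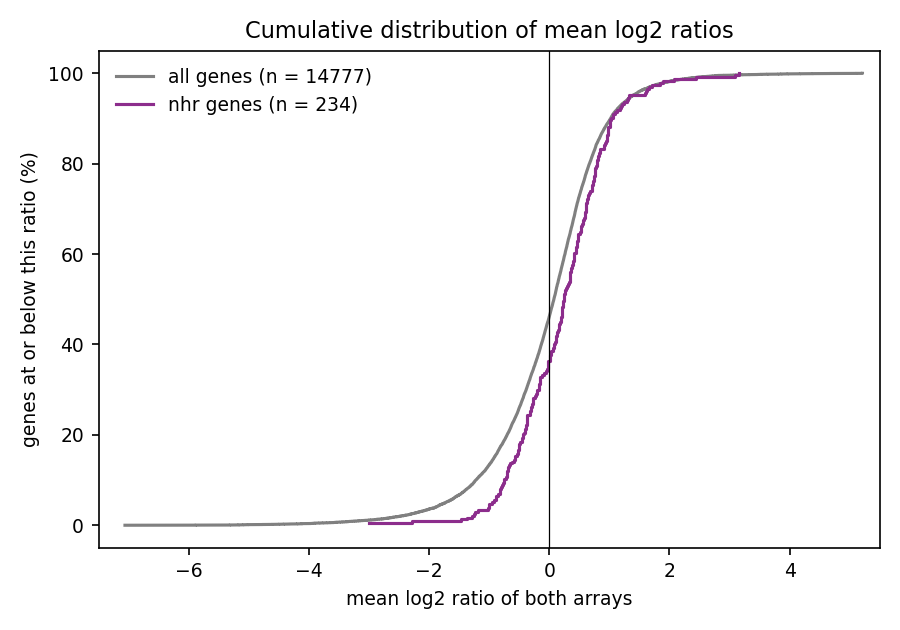
The share of genes (y axis, in %) at or below each mean log2 ratio of both arrays (x axis) is drawn for the 234 nhr genes in purple and all 14777 genes in grey. The curve of the nhr genes lies below that of all genes from about the lowest ratios to past the middle. The medians are 0.24 against 0.08 and the upper quartiles 0.71 against 0.55. The curves meet near their upper 5% points of 1.33 and 1.38.

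Among the other receptors with high ratios, nhr-259 had 2.37 in preparation 1 and 2.52 in preparation 2, a mean of 2.45 ± 0.10 (SD, n = 2; limma adjusted p = 0.0522). nhr-244 followed with 2.17 and 1.99 (limma adjusted p = 0.0719), and nhr-58 with 1.92 and 1.87 (limma adjusted p = 0.0894). All 3 kept within 0.19 log2 units between the arrays and missed the threshold. After quantile normalization of the arrays, nhr-259, nhr-244 and nhr-58 passed (limma adjusted p = 0.0164, 0.0309 and 0.0455), and nhr-259 also passed with each array centred on its median (limma adjusted p = 0.0389).

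nhr-272 had the second highest mean of the family, and its arrays lay far apart. The log2 ratios were 1.43 in preparation 1 and 4.74 in preparation 2, with a mean of 3.08 ± 2.34 (SD, n = 2; limma adjusted p = 0.141). Both values are above 2-fold, so the gene counts among the 17, but its arrays differ in size. After quantile normalization the mean was 2.90 and the gene passed (limma adjusted p = 0.0394).

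Of the remaining named genes above the reference, nhr-148 was at 2.35 and 1.35 on the preparation 1 and 2 arrays, and nhr-54 at 1.92 and 1.49. nhr-7, measured with 2 probes, was at 2.12 and 1.21. Each of these exceeded 2-fold on both arrays without passing the test. nhr-63 was at 1.56 and 1.69, nhr-282 at 1.35 and 1.88, and nhr-74 at 1.65 and 1.02. The limma adjusted p of these 6 genes ran from 0.116 for nhr-54 to 0.191 for nhr-74.

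Below the reference, nhr-57 came after nhr-21. Its transcript is known as a target of the hypoxia-inducible factor HIF-1. The log2 ratios were -2.03 in preparation 1 and -2.55 in preparation 2, with a mean of -2.29 ± 0.36 (SD, n = 2; limma adjusted p = 0.0636). Its 2 probes gave means of -2.18 and -2.40, so both pointed the same way. With each array centred, or with quantile normalization, nhr-57 passed (limma adjusted p = 0.0410 and 0.0213).

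nhr-19 had log2 ratios of -1.25 and -1.47 on the preparation 1 and 2 arrays, nhr-290 had -1.06 and -1.44, and nhr-18 had -1.13 and -1.26. These genes were at least 2-fold below the reference on both arrays, and none passed the test (limma adjusted p = 0.168, 0.198 and 0.204). Other genes among the 12 lowest were low on one array. nhr-163 was at -2.29 in preparation 1 and -0.27 in preparation 2 (limma adjusted p = 0.307). nhr-109 was at -0.40 and -1.63, and nhr-260 at -1.44 and -0.58. nhr-40, a receptor of embryonic and muscle development, was at -1.39 and -0.53 (limma adjusted p = 0.303).

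**Figure D3:**
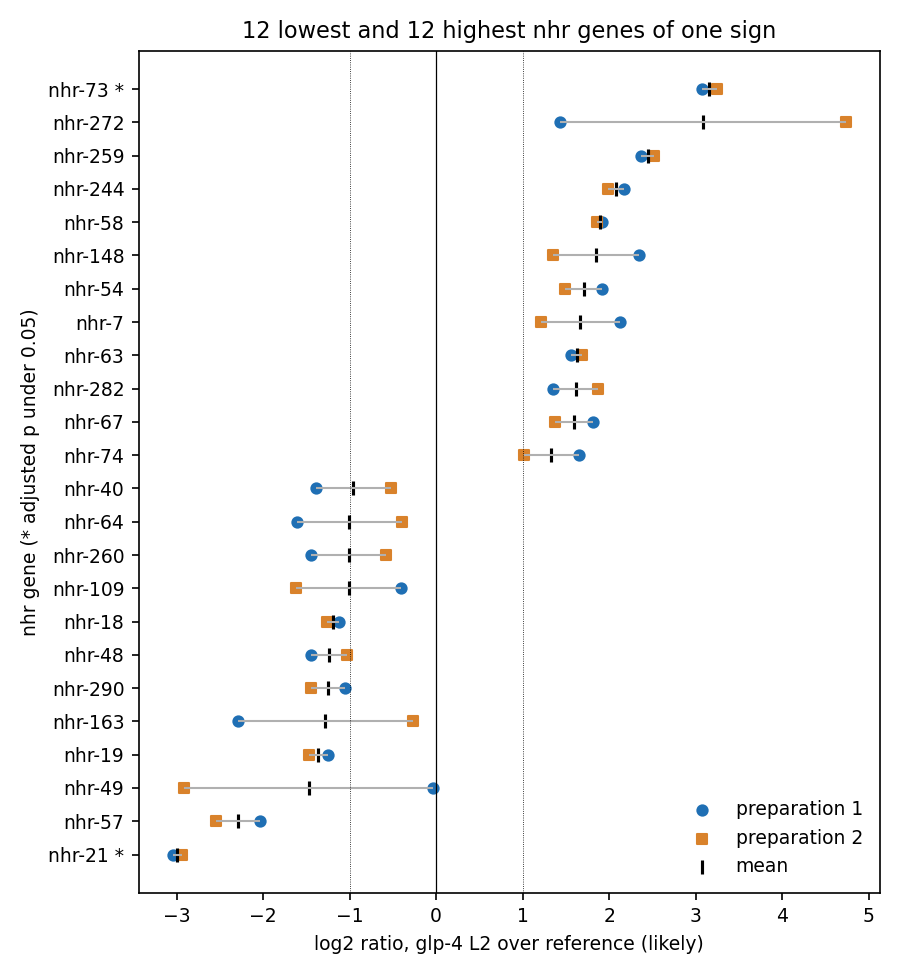
The 12 lowest and 12 highest nhr genes by mean log2 ratio, among those with the same sign on both arrays, are listed on the y axis, with the log2 ratio on the x axis as blue circles for preparation 1, orange squares for preparation 2 and black ticks for the mean; an asterisk marks a limma adjusted p under 0.05. The arrays nearly coincide for nhr-73 and nhr-21 and lie far apart for nhr-272 (1.43 and 4.74), nhr-49 (-0.04 and -2.91) and nhr-163 (-2.29 and -0.27).

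The next question was how receptors with a known role behaved, beginning with those that have counterparts outside nematodes. Of 11 such nhr genes listed, 9 had values and none passed the test, while 1 lay below 0 and 2 above at an unadjusted p under 0.05 in the limma fit (10.9% and 7.78% of all genes did). The 3 were nhr-48, nhr-67 and nhr-8. The median log2 ratio of the 9 was 0.21 (0.39 in preparation 1 and -0.09 in preparation 2). No value is given for nhr-91 and nhr-239.

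nhr-67, the relative of tailless and TLX that acts in the anchor cell of the gonad, had log2 ratios of 1.82 in preparation 1 and 1.37 in preparation 2. Its mean was 1.59 ± 0.31 (SD, n = 2), or 3.02-fold above the reference (limma adjusted p = 0.132). nhr-8, a close relative of the steroid receptor DAF-12 that acts in cholesterol balance and toxin resistance, was at 1.58 and 1.03, with a mean of 1.31 ± 0.39 (SD, n = 2; limma adjusted p = 0.192). nhr-48, of the same subfamily as DAF-12 and NHR-8, was at -1.45 and -1.04, with a mean of -1.24 ± 0.29 (SD, n = 2; limma adjusted p = 0.200). The arrays kept the same side of 0 for each of these 3 genes, and nhr-8 and nhr-48 lay on opposite sides of it. nhr-111, of the same subfamily as nhr-67, was at 0.39 and 1.24. nhr-6, the relative of mammalian NR4A receptors needed for the spermatheca, was at 0.06 and -0.09 (limma adjusted p = 0.986).

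None of the 5 listed receptors of molting and larval development passed the test, and 1 (nhr-67) lay above 0 at an unadjusted p under 0.05 in the limma fit (7.78% of all genes did). nhr-23, the counterpart of insect DHR3 and mammalian ROR and required for molting, had log2 ratios of 0.91 in preparation 1 and -0.48 in preparation 2. nhr-25, the counterpart of Ftz-F1, was at 1.17 and -0.38. The 2 arrays thus put both genes on opposite sides of the reference. nhr-41, the relative of insect DHR78, was at -0.18 and 0.49. nhr-85, the relative of E75 and Rev-Erb, was at -1.22 and -0.42 (limma adjusted p = 0.354). For nhr-23 the 95% interval of the mean ran from -1.01 to 1.43, so a 2-fold difference in either direction could not be told from 0 with these 2 arrays.

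Receptors of fat and metabolism were described next. Of 13 listed, 12 had values and none passed, with 1 (nhr-8) above 0 at an unadjusted p under 0.05 in the limma fit (7.78% of all genes were). Their median log2 ratio was -0.31 (0.16 in preparation 1 and -0.40 in preparation 2). nhr-49, an HNF4-like receptor that regulates fatty acid desaturation and beta-oxidation, was at -0.04 in preparation 1 and -2.91 in preparation 2. The 2 values leave its mean of -1.48 ± 2.03 (SD, n = 2; limma adjusted p = 0.336) without a settled size. nhr-68, which acts with nhr-10 to switch on the propionate shunt, was likewise at 0.35 and -1.74, while nhr-10 was at -0.23 and -0.41.

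None of the 3 measured partners of NHR-49 passed the test. nhr-80, which promotes desaturase expression, was at 1.10 and -0.36 on the preparation 1 and 2 arrays. nhr-66 was at 0.11 and -0.71, and nhr-13 at 0.18 and -0.17. All 3 had opposite signs on the arrays. nhr-62, needed for the longevity response to dietary restriction, was at 0.70 and 0.73 (limma adjusted p = 0.373). nhr-76, part of a serotonin-driven fat loss pathway, was at -0.78 and -0.54, and nhr-64 at -1.61 and -0.39. nhr-69 was at 0.15 and -0.95. No value is given for nhr-114.

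Of 7 receptors listed for stress, toxins or pathogens, 6 had values and none passed, with 1 below 0 (nhr-57) and 1 above (nhr-8) at an unadjusted p under 0.05 in the limma fit (10.9% and 7.78% of all genes were). nhr-14, which acts in iron balance and immunity, was at 0.24 in preparation 1 and -1.62 in preparation 2. nhr-45, a regulator of detoxification, was at 1.78 and -0.25. Their signs differed between the arrays. nhr-176, which controls a cytochrome P450 induced by thiabendazole, was at -0.25 and -1.18 (limma adjusted p = 0.414). All 6 had a lower value in preparation 2 than in preparation 1, as did 9 of the 12 receptors of fat and metabolism. Over the whole family 127 of 234 genes did (54.3%), and over all genes 7351 did (49.7%).

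Over all genes, the difference between the arrays moved with the span of the gene. Genes were split at the family's median span of 2190.5 base pairs in the WBcel235 assembly. Among all genes the median of preparation 2 minus preparation 1 was 0.21 for shorter genes and -0.29 for longer ones. Among nhr genes it was -0.05 for the 116 shorter and -0.15 for the 116 longer ones. The median spans of the stress and of the fat and metabolism receptors were 3218.5 and 4626 base pairs. The propionate shunt genes described below had a median span of 1983 base pairs, and 5 of 5 were lower in preparation 2. For the molting and larval development receptors (6555 base pairs) and the coregulator genes described below (10065 base pairs) it was 3 of 5 each. Whether span accounts for the counts in these lists was not tested. With each array corrected for span, nhr-73 and nhr-21 passed (limma adjusted p = 0.0282 and 0.0385).

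The third question concerned the rest of the receptor pathway, that is receptors with other names, cofactors, the ligand pathway of DAF-12 and targets. Most of the listed targets of NHR-49 and NHR-80 stood below the reference. Of 8 listed, all had values, and 3 were lower past the test (1.5% of all genes were), 0 higher and 5 did not pass. Their median log2 ratio was -2.31 (-2.23 in preparation 1 and -2.01 in preparation 2), where all genes had 0.10 and 0.02. Below 0 on both arrays were 7 of the 8 (30.8% of all genes were), and 6 were at least 2-fold below the reference on both (7.35% of all genes were). This list and the others were chosen with earlier results of these data known. Their counts therefore describe the listed genes and are no test of targets as a class.

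acs-2, an acyl-CoA synthetase of mitochondrial beta-oxidation that is induced by fasting, had log2 ratios of -5.16 in preparation 1 and -4.76 in preparation 2. Its mean was -4.96 ± 0.28 (SD, n = 2), or 31.1-fold lower (limma adjusted p = 0.0208). hacd-1, a hydroxyacyl-CoA dehydrogenase of the same pathway, was at -3.32 and -3.40, or 10.3-fold lower (limma adjusted p = 0.0306). Both genes were far below the reference on both arrays. icl-1, the glyoxylate cycle enzyme, was at -3.15 and -4.57, with a mean of -3.86 ± 1.00 (SD, n = 2; limma adjusted p = 0.0354). It was measured with 3 probes, and with their median in place of the mean it was at -3.23 and did not pass (limma adjusted p = 0.0657). The rest of the list is named here after its values were seen. The stearoyl-CoA desaturases fat-6 (-1.31 and -1.82) and fat-7 (-1.05 and -1.40) lay below 0 on both arrays without passing (limma adjusted p = 0.138 and 0.201). So did fmo-2 at -3.90 and -2.20 (limma adjusted p = 0.0635) and, less far, fat-5 at -0.67 and -0.54 (limma adjusted p = 0.442). cpt-5 lay above 0 at 0.66 and 0.35 (limma adjusted p = 0.519).

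The ligand pathway of DAF-12 was described next, a list that holds sterol transporters and other genes besides synthesis enzymes. DAF-12 is a receptor that, bound by dafachronic acids made from cholesterol, directs reproductive growth rather than the dauer larva. Of 8 genes listed, 7 had values and none passed, with 3 above 0 and 1 below at an unadjusted p under 0.05 in the limma fit (7.78% and 10.9% of all genes were). The median was 0.89 (1.30 in preparation 1 and 0.81 in preparation 2). daf-36, the oxygenase of the first step, had log2 ratios of 2.21 and 2.19 (mean 2.20 ± 0.01, SD, n = 2; limma adjusted p = 0.0638). The sterol transporter gene ncr-2 had 2.06 and 2.19 (mean 2.12 ± 0.09, SD, n = 2; limma adjusted p = 0.0678). The arrays nearly coincide for both genes. After quantile normalization both passed (limma adjusted p = 0.0245 and 0.0289). The ncr-2 paralog ncr-1, named here after its value was seen, was at -1.73 and -1.07 (limma adjusted p = 0.176). daf-9 of the same list, also named after its value was seen, was at 1.30 and 0.81 (limma adjusted p = 0.253).

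Receptors without an nhr name had mean log2 ratios from -0.45 for daf-12 to 0.46 for unc-55. All 5 had values and none passed. At an unadjusted p under 0.05 in the limma fit there were 0 (10.9% of all genes were below 0 and 7.78% above), which for 5 genes does not set them apart. Their median was 0.24. daf-12 itself was at -0.55 in preparation 1 and -0.35 in preparation 2 (limma adjusted p = 0.562), and unc-55, a receptor of motor neuron identity, was at 0.37 and 0.56 (limma adjusted p = 0.550).

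None of the 5 coregulator genes passed either. At an unadjusted p under 0.05 in the limma fit there were again 0 (10.9% of all genes were below 0 and 7.78% above), too few genes to set them apart. mdt-15, the Mediator subunit that binds NHR-49, was at -0.08 in preparation 1 and -2.40 in preparation 2 (limma adjusted p = 0.345). The values of nhr-49 itself were -0.04 and -2.91, so both genes were near the reference on one array and low on the other. gei-8, a relative of the corepressor NCoR, was at -0.48 and -0.61 (limma adjusted p = 0.482). Its 2 probes disagreed, with means of -1.41 and 0.31, so the value of the gene is uncertain.

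**Figure D4:**
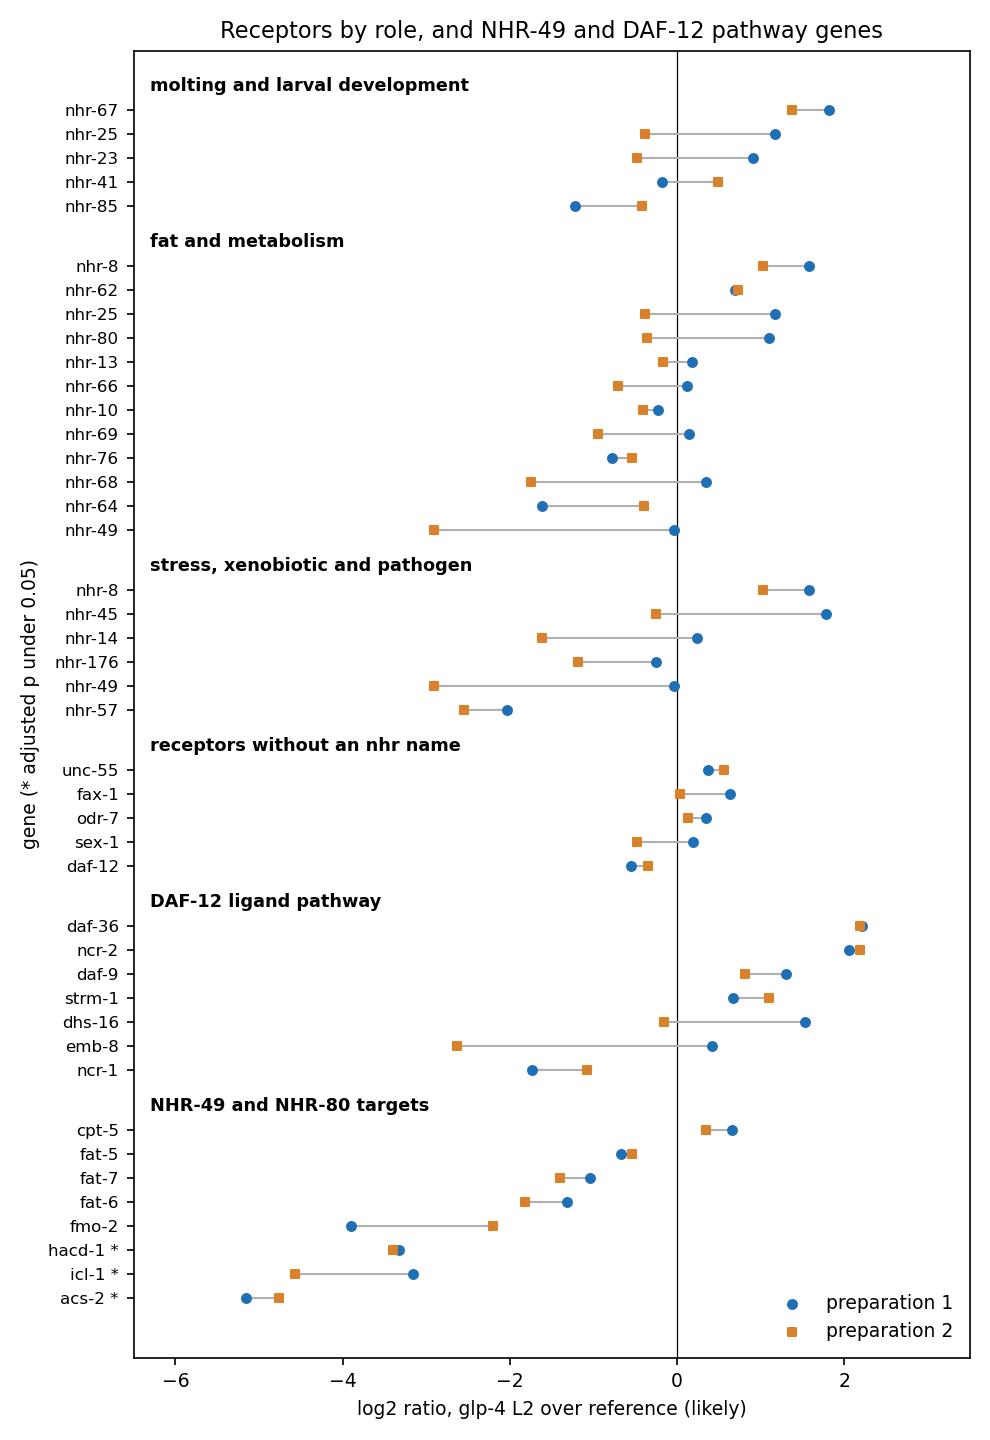
Genes of 6 lists are drawn with the log2 ratio on the x axis, blue circles for preparation 1 and orange squares for preparation 2, sorted by mean within each list; an asterisk marks a limma adjusted p under 0.05. The arrays lie far apart for some metabolic and stress receptors, as for nhr-49 (-0.04 and -2.91), and close for others, as for nhr-62 (0.70 and 0.73). The targets acs-2 (-5.16 and -4.76) and hacd-1 (-3.32 and -3.40) are low on both. So are icl-1 (-3.15 and -4.57) and fmo-2 (-3.90 and -2.20), with a wider gap between the arrays.

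The propionate shunt genes, controlled by NHR-10 and NHR-68, gave 0 of 5 past the test and 1 above 0 at an unadjusted p under 0.05 in the limma fit (7.78% of all genes were). The shunt enzyme gene ech-6 was at 1.35 and 1.10 (limma adjusted p = 0.200) and alh-8 at -0.48 and -1.92 (limma adjusted p = 0.276). Of 8 cuticle and molting genes under NHR-23, 7 had values and none passed, with 3 below 0 at an unadjusted p under 0.05 in the limma fit (10.9% of all genes were). noah-1, a protein of the apical matrix, was at -2.83 and -1.75 (limma adjusted p = 0.0812), and mlt-11 at -0.78 and -1.66 (limma adjusted p = 0.229). The mean log2 ratios of these 7 ran from -2.29 for noah-1 to 0.85 for dpy-7, a collagen of the cuticle, with a median of -0.04. noah-1 passed after quantile normalization (limma adjusted p = 0.0349).

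Position in the genome was then compared, since receptors of the expanded group sit largely on one chromosome. Chromosome V of WBcel235 carried 147 of the 234 members (62.8%), followed by IV with 23, I and X with 22 each, II with 11 and III with 7, and 2 had no match by Entrez ID. On chromosome V the nhr median was 0.27, and all 3788 genes measured there had 0.26. On chromosome I the nhr median was 0.39 where all genes had -0.12, and it was 0.31 and 0.33 on the preparation 1 and 2 arrays. On chromosome X the nhr median was -0.12 where all genes had 0.21, at 0.23 in preparation 1 and -0.39 in preparation 2. The nhr median was 0.35 on II, 0.14 on III and -0.02 on IV, where all genes had 0.03, -0.13 and -0.02. Of the 17 genes at least 2-fold above the reference, 8 were on V (of 147 members), 4 on I (of 22), 4 on IV (of 23) and 1 on X (of 22). The share over all genes was not computed per chromosome, so these counts do not set any chromosome apart.

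nhr genes often neighbour each other with no other protein-coding gene or pseudogene starting between them. RefSeq order gave 47 such runs with 144 nhr genes, of which 113 were measured. The median mean ratio was 0.31 for members in runs and 0.22 for the 121 outside them. The largest run, on chromosome V, had 8 genes, all measured, with means from 0.08 for nhr-158 to 1.00 for nhr-124. All 8 means lay above 0.

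nhr-73 and nhr-259, the first and the third highest receptors, are direct neighbours on chromosome I. Their log2 ratios of 3.08 and 3.24, and 2.37 and 2.52, on the preparation 1 and 2 arrays lay above those of every other run with 2 or more measured members, nhr-272 apart. nhr-263 and nhr-148 on chromosome V were also adjacent, with means of 1.07 and 1.85. Other runs were mixed. A run of 7 measured genes on V reached from -1.19 for nhr-18 to 0.49 for nhr-56, and another of 7 from -1.28 for nhr-163 to 0.82 for nhr-161. On chromosome X, nhr-272 (mean 3.08) stood beside nhr-214 (0.92), nhr-215 (0.46) and nhr-26 (0.45). In 22 of the 35 runs with at least 2 measured members all means had the same sign, and the median range within a run was 0.76 log2 units. No background was computed for either value. More nhr genes lay above 0 on both arrays (116) than below 0 on both (53), so neighbours can share a sign without being alike. Neighbouring receptors can be similar in sequence, so their probes may bind each other's RNA. That was not tested, and such genes are uncertain as separate measurements.

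**Figure D5:**
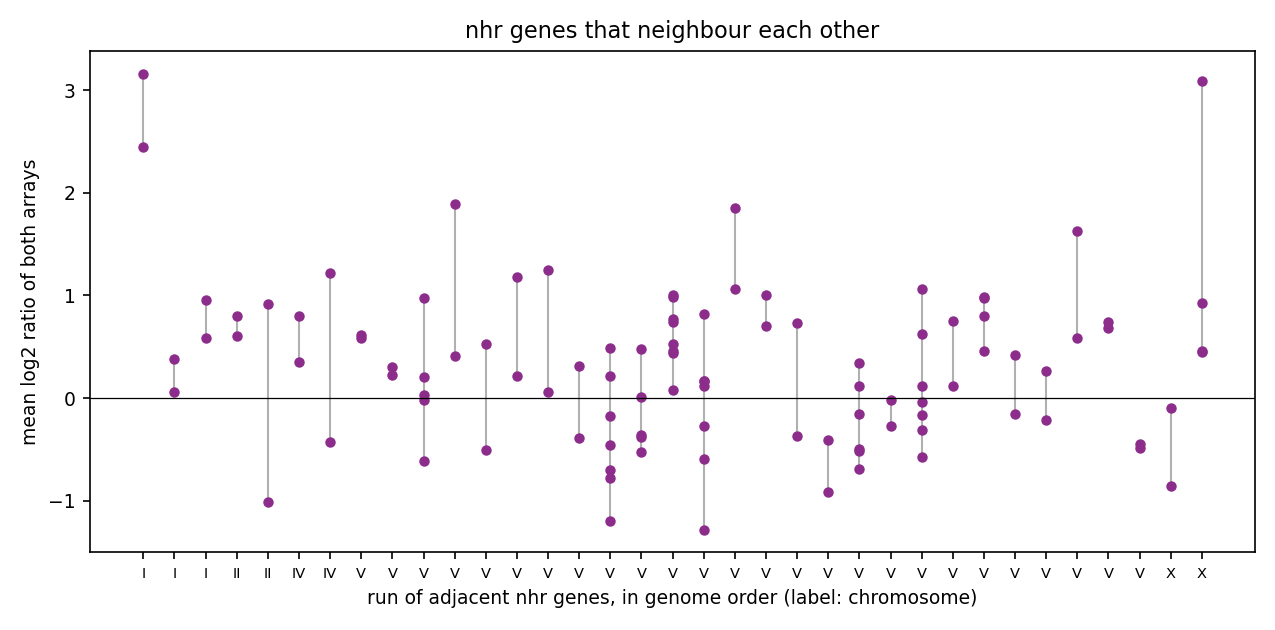
Each column is 1 of 35 runs of adjacent nhr genes with at least 2 measured members, in genome order and labelled by chromosome on the x axis, and each point is the mean log2 ratio of both arrays of 1 gene (y axis). The pair nhr-73 and nhr-259 (3.16 and 2.45) stands at the left on chromosome I, and nhr-272 (3.08) is far above its neighbours in the run at the right on X.

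Agreement between probes bears on how far single values can be read. A total of 21 nhr genes had 2 probes and the other 213 had 1. The median difference between the probes of a gene was 0.28 in preparation 1 and 0.50 in preparation 2. The largest was 1.37 for nhr-155 in preparation 1, whose second probe had no value in preparation 2, and 1.59 for nhr-167 in preparation 2. The probes differed in the sign of their mean for 4 genes, nhr-22, nhr-225, nhr-246 and nhr-262. Across the 2 arrays, 9 nhr genes differed by more than 2 log2 units (3.85%, against 7.64% of all genes), and the median SD between arrays was 0.33 for nhr genes and 0.45 for all genes.

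RefSeq lists 10 of the measured members as pseudogenes. Their mean log2 ratios ran from -0.52 for nhr-144 to 0.83 for nhr-75, with a median of 0.45. None passed the test, and 0 had an unadjusted p under 0.05 in the limma fit (10.9% of all genes did below 0 and 7.78% above). A count of 0 among so few genes does not set them apart.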

How the data were processed

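Two-colour spotted arrays of 2 samples were used. Per probe and array the authors deposited 1 value, read here as a log2 ratio, since 2 raised to the value fell on steps of 0.001 (within 0.002 of a step) for 99.1% and 98.8% of values. Background correction and scaling by the authors are not stated in the sources used here. GEO's platform annotation gave 1 gene to 16450 of 21632 probes, and only these were used. Names were checked by Entrez ID against RefSeq (WBcel235). Probes of a gene were averaged per array, and values were not centred.

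An intercept model per gene (lmFit and eBayes of limma 3.58.1, R 4.3.3) compared the mean log2 ratio with 0, with Benjamini-Hochberg adjustment over all 14777 genes and a threshold of 0.05. Residual degrees of freedom were 1 and prior degrees of freedom 4.52. The spread of the reference RNA is not in the test, and dye bias is not removed. An exact sign test over 2 arrays cannot pass the threshold. The test was tried on simulated data, where false calls made up somewhat more of the calls than the threshold sets. Most of the smallest changes put in, which were of 2 log2 units, were missed. Many changes of 3 log2 units, near the size of those of nhr-73 and nhr-21, were missed too. A gene that did not pass is therefore not shown to be unchanged. Genes named are those past the test, the 12 highest and 12 lowest receptors with the same sign on both arrays, every listed receptor, and of each other pathway list the members past the test and the 2 largest ratios. Members and lists were chosen with earlier results of these data known. Alternatives covered probe averaging, scaling, extreme ratios, discordant probes, gene span, a robust spread, single arrays and membership by RefSeq symbol. No sequences are shown.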

Additional observations from a re-analysis of the deposited data

How the results depend on the processing

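With each array centred on its median, 2 nhr genes were lower and 2 higher past the limma test (377 and 90 over all genes), and the nhr median was 0.18. With quantile normalization 2 were lower and 5 higher (521 and 202 over all genes). With log2 ratios limited to 5, 0 were lower and 1 higher (119 and 25 over all genes). Correction for gene span gave an nhr median of 0.27. nhr-13 turned to -0.057 after centring and nhr-6 to 0.10 after span correction, both far from the threshold. nhr-73 passed under all 7 refits that changed the values, the genes tested or the spread model, with a limma adjusted p of 0.00558 to 0.0453, and nhr-21 under 6 of them (0.00717 to 0.0502). The cause of these changes was not tested. On single arrays no test is possible. There the nhr median was 0.20 to 0.24, and 17 nhr genes were at least 2-fold below and 40 to 42 above the reference (2067 to 2593 and 1967 to 1994 over all genes), which asks for 1 array rather than both. No paired analysis was possible because the study has 1 group. Signal over background is unknown, so dim probes could not be set apart.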
